A study of Homo sapiens with 8 samples.

Results

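Molecular chaperones were compared between the outer and the inner cells of breast epithelial acini. The members are the probes of the array whose gene symbol names an HSP70 or HSP110 (HSPA, HSPH), a small heat shock protein (HSPB), an HSP60 or HSP10 (HSPD, HSPE), an HSP90, a J protein (DNAJA, DNAJB, DNAJC), a subunit of the cytosolic chaperonin (CCT2 to CCT8 and TCP1) or the heat shock factor HSF1. The symbol rule found 103 of 20588 probes, for 93 of 18189 symbols. Of these, 84 probes for 74 symbols belong to the families. The other 19 probes match the rule by their letters but lie outside these families: most carry old HSPC clone names of unrelated genes, and they are counted apart. HSPBP1, a partner of HSP70, and HSPBAP1 are counted there too, and neither was detected on any array.

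The arrays compare the groups as follows. MCF10A-5E is a clonal derivative of MCF10A, a non-transformed human breast epithelial line that forms hollow spheres, called acini, in reconstituted basement membrane. Per the labels, the cells were grown on Matrigel in medium with 2% Matrigel, 2% horse serum, 5 ng/ml EGF, 0.5 µg/ml hydrocortisone, 100 ng/ml cholera toxin and 10 µg/ml insulin, which both groups share. On day 6 about 50 cells attached to the surrounding matrix (outer, 4 arrays) and about 50 cells without that contact (inner, 4 arrays) were cut by laser from 8 µm sections. Poly(A) PCR made enough cDNA of each for a HumanRef-8 BeadChip from Illumina. Quadruplicate amplification is mentioned in the design, and no label ties an array to a culture or acinus of its own, so p-values measure the spread between these arrays, which may be technical. With 4 arrays in each group, and cells cut from a single clonal line at a single day, the number of arrays limits the precision.

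Chaperones bind unfolded protein and keep it from clumping. HSP70 binds and releases short stretches of a client in a cycle of ATP, J proteins deliver clients and speed the hydrolysis, HSP110 and other exchange factors reopen the cycle, and HSP90 takes on clients close to their final fold. The cytosolic chaperonin is a closed chamber of related subunits that folds actin and tubulin, HSP60 and HSP10 do similar work in mitochondria, and the small heat shock proteins hold unfolded protein without ATP. Under stress HSF1 binds heat shock elements, inverted repeats of GAA, and raises many of these genes, while the load of unfolded protein in the endoplasmic reticulum (ER) acts through another promoter element. In acini of this line the inner cells are known to lose contact with the matrix and later to die, which opens the lumen.

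The promoter elements are shown first because heat shock or ER stress is known to act through them. Promoters of RefSeq (GRCh38.p14, from 250 bases before to 50 after the start) were matched for 65 of the 74 family symbols, 84 promoters in all. A heat shock element of 3 units, GAANNTTCNNGAA or TTCNNGAANNTTC (each the other's reverse complement, so both strands are covered), was present in 7 of these 84 promoters (8.33%) and in 172 of all 35116 promoters (0.49%). The 7 genes were DNAJA1, DNAJB6, HSP90AA1, HSP90AB1, HSPA6, HSPA8 and HSPD1. DNAJB1, an HSF1 target, and the heat-inducible HSPA1A had no match of 3 units, so the match misses some genes that heat drives. The shorter element GAANNTTC, which lies inside the longer one, was present in 23.8% of member promoters and 6.77% of all, among them HSPB1 and HSPA1A. The ER stress element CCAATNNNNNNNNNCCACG, searched on both strands, was present in 2 member promoters, HSPA5 and HSP90B1, and in 27 of all (0.0769%). A match describes these letters only. In the stretches below, each written 5′ to 3′ along the gene's strand, capitals mark the matched element.
HSP90AA1, chr14:102087108-102087144, minus strand, 3 units: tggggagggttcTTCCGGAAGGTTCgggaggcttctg
HSP90AB1, chr6:44247766-44247802, plus strand, 3 units: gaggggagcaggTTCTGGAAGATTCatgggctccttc
HSPA8, chr11:123062167-123062203, minus strand, 3 units: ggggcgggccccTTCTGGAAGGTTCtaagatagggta
DNAJB6, chr7:157336861-157336897, plus strand, 3 units: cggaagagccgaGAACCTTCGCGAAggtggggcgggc
HSPA6, chr1:161524454-161524490, plus strand, 3 units: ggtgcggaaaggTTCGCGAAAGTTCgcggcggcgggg
HSPA1A, chr6:31815425-31815456, plus strand, 2 units: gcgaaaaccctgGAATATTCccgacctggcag
HSPB1, chr7:76302479-76302510, plus strand, 2 units: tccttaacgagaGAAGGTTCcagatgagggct
HSPA5, chr9:125241379-125241421, minus strand, ER element: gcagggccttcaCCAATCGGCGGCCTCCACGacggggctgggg
HSP90B1, chr12:103930204-103930246, plus strand, ER element: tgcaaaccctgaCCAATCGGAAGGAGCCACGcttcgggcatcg

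Between 6429 and 7000 probes were detected per array, the most on inner array 3 (exact two-sided permutation test of outer against inner, p = 0.371, where 0.0286 is the smallest p possible) and the mean intensity ran from 344.4 to 533.0 (p = 0.743). Of 12 breast epithelial marker genes 9 were detected well enough to test, 4 higher and 5 lower in outer cells with no adjusted call, while the probes of KRT6A and CDH1 were detected on no array. KRT18 was untested too. Its probe ILMN_22651 read 9.90 to 10.28 in log2 over the 8 arrays but was detected on 2 inner arrays only, and probe ILMN_22543 on none. None of the 5 endothelial markers was detected, 1 of 6 leukocyte markers was tested (CD68), and 2 of 8 fibroblast markers (DCN and COL1A2). The summed signal of the fibroblast list was 1605 to 4254 on outer and 1828 to 4595 on inner arrays, so the groups overlapped. That of the leukocyte list was 235 to 391 on outer and 362 to 523 on inner arrays, which overlap little, and CD14 was detected on 3 inner arrays and no outer array. Genes that rise when tissue is handled gave 6119 to 8581 on outer and 6852 to 8891 on inner arrays, again overlapping. DUSP1, at 12.52 to 12.99 in log2, holds most of this sum, as DCN does of the fibroblast sum. Overlap of these sums therefore says little of the other genes in the lists. All cells came from a single clonal epithelial line, so the leukocyte, endothelial and fibroblast lists describe signal and count no such cells. The source of that signal was not tested. In pooled cells, fewer cells with a transcript and less of it per cell cannot be told apart.

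A probe was tested where its detection p was below 0.01 on at least 4 of the 8 arrays, whichever group they came from, and values below are log2 intensities after background correction and quantile normalisation. Of the 84 family probes, 43 for 40 genes were tested, beside 13 of the 19 that match by letters. In all 47 of the 103 probes were not tested, and 26 were detected on no array. Where a difference is given it is outer minus inner, with the standard error (SE) of limma's fit.

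No chaperone passed the test between outer and inner cells: 0 of the 56 tested member probes had a limma adjusted p below 0.05, against 4 of all 6698 tested probes (0.0597%). At an unadjusted p below 0.05 there was 1 member, HSPB1, lower in outer cells, against 8.03% of all tested probes (4.08% higher and 3.96% lower). The 4 outer arrays and the 4 inner arrays did not overlap for 3 of the 56 members, against 5.26% of all tested probes, and so near the background. Of the 3, HSPA8 and HSPC111 were higher in outer cells (2.57% of all tested probes) and HSPB1 lower (2.69%). Outer means were above inner means for 30 of the 56 (50.6% over all tested probes), with a median difference of 0.02, beside 0.01 over all tested probes. For the 43 family probes alone, 25 were higher and 18 lower, with a median of 0.03.

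Many of these intervals were narrow. For 23 of the 43 family probes (53.5%) the 95% interval of the difference lay wholly within 2-fold in either direction, against 24.9% of all tested probes. Level and spread go together on these arrays, so the share depends on brightness: at a mean log2 intensity of 10 and above it was 19 of 22 family probes (86.4%) against 57.9% of all tested probes at that level, and below it 4 of 21 (19%) against 11.7%. The median SD within groups of the 22 bright family probes was 0.16, against 0.35 for all tested probes at 10 and above. These sets are not matched in brightness: 11 of the 22 family probes lay at 12 to 16, against 428 of all 1923. At 12 to 16 the median SD was 0.12 against 0.16, and at 10 to 12 it was 0.24 against 0.42. The shares within 2-fold carry the same limit. Below a level of 10 the median SD was 0.94, against 1.02. The detection filter and the brightness of a probe set which members stand in these counts, and no test of the difference in spread was made. For 9 of the 21 dimmer family probes, and none of the 22 bright ones, arrays of 1 group spanned more than 3 log2 units, against 43.8% and 3.33% of all tested probes: CCT4, CCT6A, DNAJB14, DNAJC13, DNAJC15, DNAJC3, DNAJC5, HSPA4L and HSPA5 each had such a probe.

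**Figure D1:**
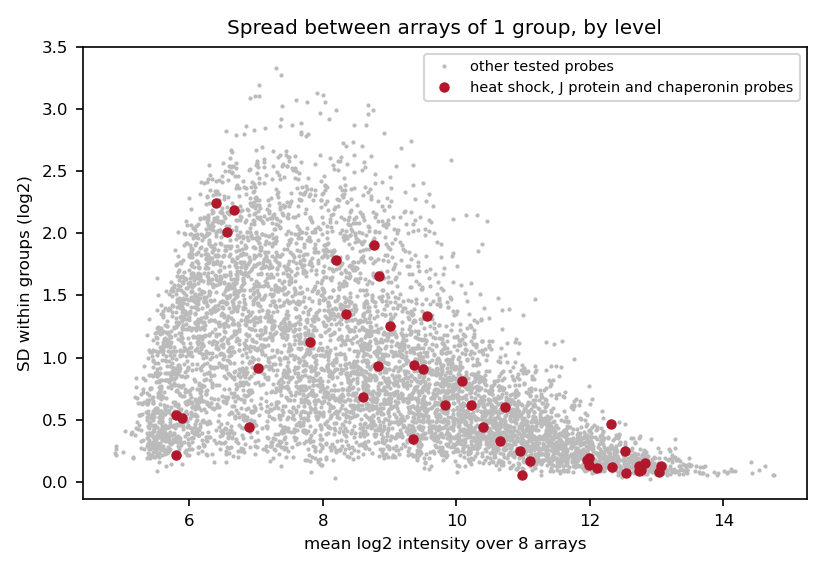
Each point is a tested probe, with its mean log2 intensity over 8 arrays on the x axis and its SD within groups, in log2 units, on the y axis. Red points are the 43 family probes and grey points the other tested probes. The 22 red points at a level of 10 and above have a median SD of 0.16 and reach up to 0.81, while those below that level spread up to more than 2.

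**Figure D2:**
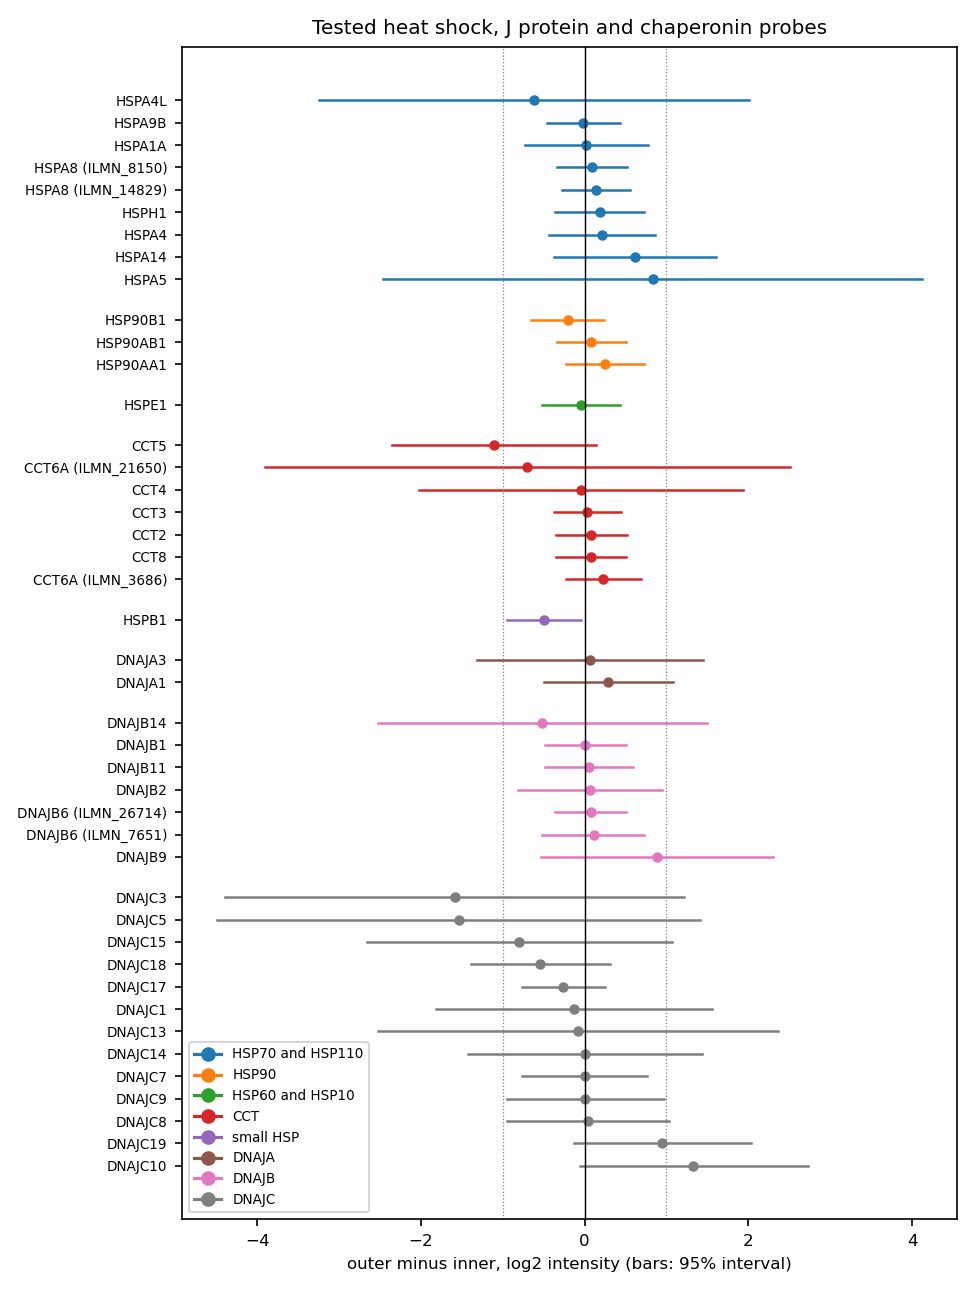
Points give outer minus inner in log2 intensity for the 43 tested family probes, coloured by family, and bars the 95% interval from limma's fit, with dotted lines at a 2-fold difference either way. The bar of HSPB1 alone does not reach 0, and the widest bars belong to HSPA5, HSPA4L, CCT6A, DNAJC3 and DNAJC5.

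HSPB1, a small heat shock protein that binds unfolded clients and is also known to act on actin filaments, read 11.76, 11.90, 11.65 and 11.65 on the outer arrays and 12.14, 12.32, 12.10 and 12.42 on the inner arrays. Every inner array was above every outer array. The means were 11.74 ± 0.12 (SD, n = 4) and 12.24 ± 0.15 (SD, n = 4), a difference of -0.50 (SE 0.19, 95% interval -0.95 to -0.05), or 1.42-fold more in inner cells. Its limma p was 0.033 unadjusted and 0.577 after adjustment over all probes, so it was not called. The unadjusted p was 0.0703 with median scaling, where the groups also overlapped, and between 0.0589 and 0.0822 without outer array 1, 3 or 4 or inner array 2 or 4. The 9 tested epithelial markers were 4 higher and 5 lower in outer cells, with a median of -0.01. KRT8, a keratin of luminal breast cells, was lower by -0.55 (SE 0.25, limma adjusted p = 0.638). LAMA3, a laminin chain of the basement membrane, was higher by 0.46 (SE 0.21, adjusted p = 0.644) in probe ILMN_6835. Both were picked because their groups did not overlap, as for 5.26% of all tested probes. The other LAMA3 probe, ILMN_6010, was detected on no array, with means of 4.68 in outer and 5.03 in inner cells. KRT5 (0.12), KRT14 (-0.14) and SFN (-0.01) had smaller differences. The leukocyte marker CD68 differed by -0.49 (SE 0.39), with groups that overlapped. The part of these markers in the HSPB1 difference was not tested. Of the HSPB symbols only HSPB1 could be tested. HSPB3, HSPB6, HSPB7, HSPB8 and HSPB9 were detected on no array. HSPB2 was detected on 1 outer array only, at 9.35 against 4.60 to 5.06 on all others. CRYAB, a small heat shock protein under another symbol, was tested among the cochaperones and differed by -1.28 (SE 1.52, limma adjusted p = 0.89). HSPB8, which works with BAG3 in clearing damaged protein, read 4.35 to 4.91 on the outer and 4.46 to 4.67 on the inner arrays, with groups that overlap.

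**Figure D3:**
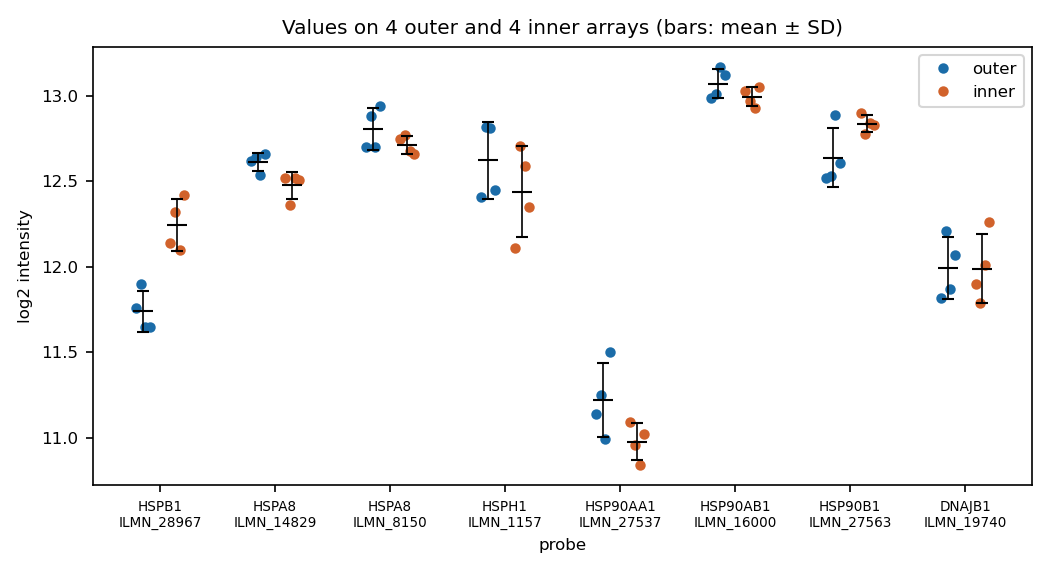
Log2 intensity of 8 probes on the 4 outer (blue) and 4 inner (orange) arrays, with black bars for the mean ± SD. HSPB1 and the first HSPA8 probe show groups that do not overlap, in opposite directions, while outer and inner values of HSPH1, the HSP90 genes and DNAJB1 overlap.

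Among the HSP70 and HSP110 genes 9 of 15 probes were tested, 7 higher and 2 lower in outer cells, with a median of 0.14 (range -0.62 to 0.83) and no call. HSPA8, the constitutive cytosolic HSP70, has 2 probes. Its probe ILMN_14829 read 12.62, 12.64, 12.54 and 12.66 on outer arrays and 12.52, 12.36, 12.52 and 12.51 on inner arrays. Every outer value was above every inner value, by as little as the distance from 12.54 to 12.52, and with median scaling the groups overlapped. The difference of 0.14 (SE 0.18) did not pass limma's test (adjusted p = 0.896), and the groups of the other probe, ILMN_8150, overlapped, at 12.81 ± 0.12 against 12.71 ± 0.06 (SD, n = 4 each).

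The mitochondrial HSP70, listed as HSPA9B, read 13.09, 12.95, 13.18 and 13.03 in outer and 13.25, 12.88, 13.07 and 13.13 in inner cells, a difference of -0.02 (95% interval -0.46 to 0.43). Its groups overlapped. HSPH1, an HSP110 that exchanges nucleotide on HSP70, read 12.41, 12.82, 12.81 and 12.45 in outer and 12.11, 12.71, 12.59 and 12.35 in inner cells (0.19, 95% interval -0.36 to 0.73). HSPA14, an HSP70 that sits at the ribosome, read 10.67, 11.21, 9.51 and 10.75 against 10.65, 9.71, 9.55 and 9.78. Apart from outer array 3, its outer values were above all inner ones, and the difference of 0.61 (SE 0.43) had an adjusted p of 0.787 in limma.

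The heat-inducible HSP70 genes were dim. HSPA1A read 6.55, 7.56, 6.65 and 6.84 in outer cells and 7.16, 6.34, 6.75 and 7.27 in inner cells, a difference of 0.02 (95% interval -0.73 to 0.78). These groups overlapped fully. Its near-identical copy HSPA1B was detected on 1 inner array, and signal of the pair may be shared between their probes. HSPA6, a strictly inducible HSP70 whose promoter element is printed above, was detected on 1 outer array (6.00) and 1 inner array (6.03) and read 4.36 to 4.80 elsewhere. The mRNA of HSF1 was detected on no array, with intensities of 17.6 to 35.6.

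Some HSP70 genes were seen on part of a group. The probe of HSPA5, the HSP70 of the ER also called BiP, read 8.88, 9.48, 4.52 and 4.35 in outer cells and 4.57, 6.41, 8.04 and 4.91 in inner cells. It was detected on 2 arrays of each group, and its difference of 0.83 had an SE of 1.42. HSPA4L, a relative of HSP110, read 10.43, 8.43, 8.19 and 4.50 against 8.51, 8.06, 9.22 and 8.24 (-0.62, SE 1.13).

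The 2 probes of HSPA4, another HSP110, disagreed. Probe ILMN_25840 was detected on all arrays, at 9.55, 9.52, 9.30 and 9.46 in outer and 8.55, 9.54, 9.35 and 9.55 in inner cells (0.21, SE 0.28). Probe ILMN_25293 read 7.97, 5.55, 10.83 and 5.24 in outer cells, where 3 arrays detected it, and 4.43, 4.46, 4.36 and 4.44 in inner cells, where none did. Against the lowest signal of detected probes, the mean of its outer arrays was at least 3.94-fold higher, with a wide spread (7.40 ± 2.59, SD, n = 4) and the bound was 1.78-fold without outer array 3, and 6.03-fold and 6.48-fold without outer arrays 2 and 4. HSPA1L, known for its expression in testis, went the other way: it was detected on 3 inner arrays, at 8.18, 7.80 and 6.70 with 4.54 on the other, and on no outer array (4.34 to 4.81), at least 2.50-fold higher in inner cells (1.82-fold without inner array 1 and 4.22-fold without inner array 2). Both missed the detection filter, so neither was tested. They stand here because 3 arrays of 1 group and none of the other detected them, so a difference is built into the choice. The share of all probes with such a pattern is not given here.

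The HSP90 differences were small beside their errors. HSP90AB1, the constitutive cytosolic form, read 12.99, 13.01, 13.17 and 13.12 in outer and 13.03, 12.97, 12.93 and 13.05 in inner cells, a difference of 0.08 (95% interval -0.34 to 0.50). HSP90AA1, the inducible form, read 11.14, 11.25, 10.99 and 11.50 against 11.09, 10.96, 10.84 and 11.02 (0.25, 95% interval -0.23 to 0.72). Both sets of groups overlapped. HSP90B1, the HSP90 of the ER, had the opposite sign: 12.52, 12.53, 12.89 and 12.61 in outer and 12.90, 12.78, 12.84 and 12.83 in inner cells, where only outer array 3 reached the inner values (-0.20, 95% interval -0.65 to 0.24, limma adjusted p = 0.85). For all 3 genes the interval stayed within 2-fold. The second HSP90AA1 probe was detected on 1 array of each group, and the probes of the pseudogenes HSP90AB2P and HSP90AB6P on none.

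The cytosolic chaperonin was measured through 10 probes, 7 of them tested (4 higher, 3 lower, median 0.03). Some subunits were steady over the arrays and others were not. CCT3 read 10.98, 10.98, 11.03 and 11.02 in outer and 10.96, 11.05, 10.87 and 11.00 in inner cells, a difference of 0.03 (95% interval -0.38 to 0.45). CCT2 (0.08, 95% interval -0.35 to 0.52), CCT8 (0.08, -0.35 to 0.50) and the bright CCT6A probe ILMN_3686 (0.23, -0.23 to 0.69) were as tightly bounded. Their arrays lay between 12.17 and 13.01.

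CCT5 had the largest difference of the chaperonin. It read 8.79, 10.05, 10.73 and 8.56 in outer cells and 9.90, 10.92, 10.94 and 10.81 in inner cells. Outer arrays 1 and 4 were lower than every inner array, and inner array 1 lay below outer arrays 2 and 3. The difference of -1.11 (SE 0.54, 95% interval -2.36 to 0.14) had a limma adjusted p of 0.665. CCT2, like CCT5, was highest among the outer arrays on outer array 3 and lowest among the inner arrays on inner array 1, but over a much smaller range (12.17 to 12.48). CCT4 read 9.59, 10.61, 9.96 and 7.97 against 8.57, 8.03, 11.16 and 10.55 (-0.04, SE 0.85), and CCT6A probe ILMN_21650 was detected on 2 outer and 3 inner arrays (-0.70, SE 1.38).

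TCP1 and CCT7 were not tested because their deposited detection p was 0.01 or more on all 8 arrays. For TCP1 that p was 0.25 to 0.48 at intensities of 2178 to 3575, while regular probes counted as detected from 51.4 to 77 upwards, depending on the array, so the p does not follow the signal here. Counting detection by intensity instead, a change made after seeing the data, TCP1 differed by 0.08 (95% interval -0.34 to 0.49, limma adjusted p = 0.95) and CCT7, at intensities of 139 to 301, by 0.04 (95% interval -0.54 to 0.61, adjusted p = 0.99). With both, 6 of 9 chaperonin probes were higher and 3 lower. CCT6B, a testis form of the subunit, was detected on 1 inner array.

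**Figure D4:**
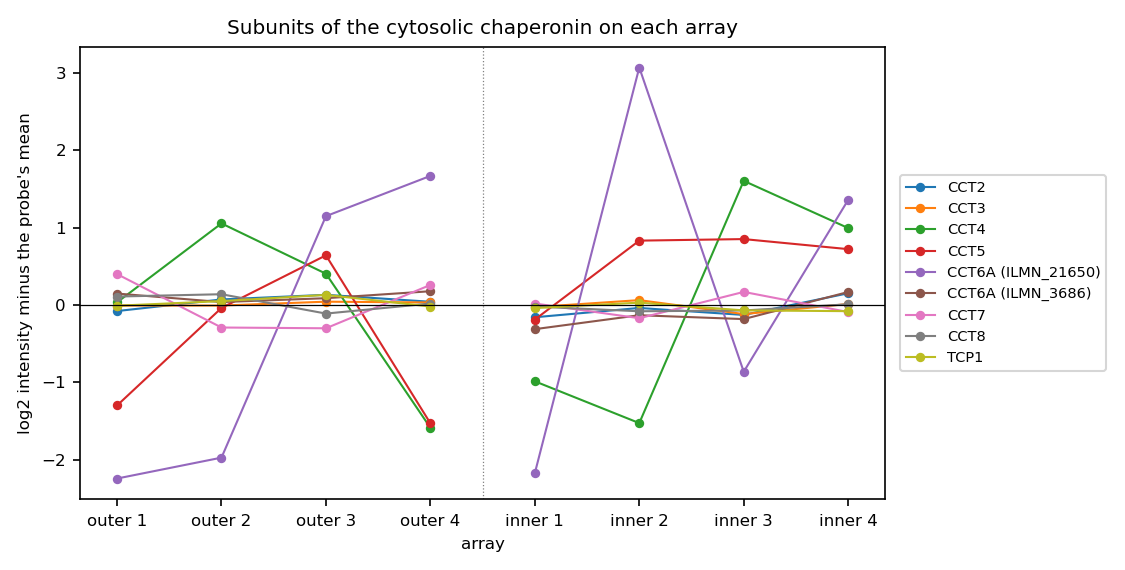
Each line is a chaperonin probe, drawn as its log2 intensity minus its own mean over 8 arrays, for the 4 outer and 4 inner arrays along the x axis. Lines join values of the same probe and imply no order of arrays. CCT2, CCT3, CCT8, TCP1 and the bright CCT6A probe stay near 0 on every array, CCT7 moves a little more, and CCT4, CCT5 and CCT6A probe ILMN_21650 lie more than 1 log2 unit from their mean on 2 or more arrays.

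In mitochondria, HSPE1, the HSP10 lid of HSP60, read 12.06, 12.10, 11.96 and 11.59 in outer and 12.08, 11.94, 11.91 and 11.99 in inner cells (-0.05, 95% interval -0.52 to 0.43). Its partner HSPD1, the HSP60 itself, could not be tested: probe ILMN_3394 was detected on no array, and probe ILMN_7269 had an irregular detection p. By intensity the latter differed by -0.67 (SE 1.37), with 4.60 on outer array 2 and 9.57 to 10.21 on the other outer arrays. Of the 8 mitochondrial probes 5 were tested, 2 higher and 3 lower, with a median of -0.02.

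J proteins, which choose the work that HSP70 does, made up 42 probes. Of these 22 for 21 genes were tested, 12 higher and 10 lower, with a median of 0.01 and no call, against 4 of all 6698 tested probes (0.0597%). The classical cytosolic pair of HSP70 partners was bright in both groups. DNAJB1, an HSF1 target, read 11.82, 12.21, 11.87 and 12.07 in outer cells and 11.90, 11.79, 12.01 and 12.26 in inner cells, a difference of 0.00 (95% interval -0.49 to 0.50). DNAJA1 read 12.78, 12.07, 12.61 and 12.41 against 12.25, 11.34, 12.68 and 12.42 (0.29, SE 0.34), with inner array 2 the lowest. DNAJB6, which keeps polyglutamine proteins from aggregating, differed by 0.08 (95% interval -0.36 to 0.51) in probe ILMN_26714 and by 0.11 (-0.52 to 0.73) in probe ILMN_7651.

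The dimmer J proteins gave the largest differences and the widest errors. DNAJC10, an ER reductase that breaks wrong disulfides, read 8.80, 7.71, 6.81 and 7.48 in outer cells and 4.90, 6.76, 6.66 and 7.14 in inner cells. Only inner array 4 lay above the lowest outer array, and the difference of 1.33 (SE 0.60) had a limma adjusted p of 0.639. DNAJC19, part of the motor that pulls proteins into mitochondria, read 8.77, 9.57, 9.98 and 7.97 against 8.24, 8.10, 8.54 and 7.63. Outer array 4 alone fell into the inner range (0.95, SE 0.46, limma adjusted p = 0.666). DNAJB9, an ER J protein induced by unfolded protein, read 9.70, 9.31, 10.00 and 8.04 against 8.94, 7.84, 7.29 and 9.46 (0.88, SE 0.61).

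Other J proteins had negative differences of similar or larger size. DNAJC3, an ER J protein also induced by unfolded protein, read 7.42, 10.30, 5.31 and 8.85 in outer and 7.21, 11.08, 9.95 and 9.98 in inner cells (-1.59, SE 1.21). DNAJC5, the cysteine string protein of secretory vesicles, was detected on 1 outer and 3 inner arrays (-1.54, SE 1.27). DNAJC18 read 5.20, 5.68, 5.15 and 6.47 against 6.70, 6.20, 5.82 and 5.94 (-0.54, SE 0.37). Of the others named by the rule, DNAJB14, an ER membrane J protein, differed by -0.52 (SE 0.86), DNAJA3, a mitochondrial one, by 0.07 (SE 0.59) and DNAJC8, a spliceosome-associated one, by 0.04 (SE 0.43). The size of the dim values depends on the background correction: with the background estimated from all probes, DNAJC10 differed by 0.24, DNAJC3 by -0.99, DNAJC5 by -0.34, DNAJC18 by -0.03 and DNAJB9 by 0.59. HSPA5, above, differed by 0.39 in that setting.

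By compartment, a set of 7 ER chaperones (HSPA5, HSP90B1, DNAJB9, DNAJB11, DNAJC1, DNAJC3 and DNAJC10) had 4 higher and 3 lower, with a median of 0.05 and a median SD within groups of 0.93. With DNAJB14 added, 4 were higher and 4 lower, with a median of -0.04. DNAJB11, which delivers clients to BiP, was the steady one beside HSP90B1: it read 10.68, 11.05, 11.16 and 11.05 in outer and 11.05, 10.54, 11.18 and 10.98 in inner cells (0.05, SE 0.23). By promoter element, the 7 tested probes of the 5 genes with a heat shock element of 3 units (DNAJA1, DNAJB6, HSP90AA1, HSP90AB1 and HSPA8) were higher in outer cells, by 0.08 to 0.29 with a median of 0.11. HSPD1 has the element too, and its probe ILMN_7269, left out by its irregular detection p, had the opposite sign by intensity (-0.67, SE 1.37). None of their groups but those of HSPA8 probe ILMN_14829 were apart. The 32 tested probes of genes without it in their windows had 16 higher and 16 lower, with a median of 0.00. DNAJB1 and the heat-inducible HSPA1A are among these genes, so the element does not split the members by response to heat. HSPE1 (-0.05) is among them too, although the stretch with the HSPD1 element, chr2:197500056-197500090, lies just before its window, which starts at 197500129. All 7 probes are bright, and of the 22 family probes at that level 16 were higher (72.7%), against 50% of all tested probes there. These counts were made after the values were known, and the probes share arrays and in part genes, so they describe these arrays only. The genes with the ER element pointed opposite ways, 0.83 for HSPA5 and -0.20 for HSP90B1.

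The proteins that work with these chaperones gave a like picture. Of 36 genes for cochaperones and partners (38 probes), 29 were tested, 18 higher and 11 lower, with a median of 0.12 and no adjusted call. At an unadjusted limma p below 0.05 there was 1 in each direction, or 2 of 29, which is near the 8.03% of all tested probes (4.08% higher, 3.96% lower). GRPEL1, which exchanges nucleotide on the mitochondrial HSP70, differed by 0.86, and ST13, which steadies HSP70 bound to its client, by -1.02, both with a limma adjusted p of 0.545. Next in order of p stood HSF2 (0.84), a relative of HSF1, and SIL1 (0.90), the exchange factor of BiP, on the higher side, and HYOU1 (-0.73), a large ER HSP70, and FKBP5 (-0.30), an HSP90 partner, on the lower. None of these 4 had an unadjusted p below 0.05.

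The probes that match by letters hold 13 tested probes, 5 higher and 8 lower, with a median of -0.03, and they are named here after their values were seen. HSPC111, now NOP16, a nucleolar protein of ribosome assembly, read 12.10, 12.25, 12.04 and 12.19 in outer cells and 11.70, 11.74, 11.75 and 11.92 in inner cells. Every outer array was above every inner one, with a difference of 0.37 (SE 0.18, 95% interval -0.06 to 0.80) and a limma adjusted p of 0.681. HSPC138, now HIKESHI, the carrier that takes HSP70 into the nucleus under heat, read 9.19, 6.88, 8.79 and 8.53 against 9.09, 9.07, 9.11 and 9.28 (-0.79, SE 0.48). HSPC049, now WDR91, had the largest difference of all members, 3.27 (SE 1.43, limma adjusted p = 0.628), from 5.20, 10.59, 10.91 and 7.94 against 4.40, 8.07, 4.65 and 4.42, and was detected on 3 outer arrays and 1 inner array. With the background estimated from all probes its difference was 1.46.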

How the data were processed

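The authors deposited mean bead intensity per probe, neither background-subtracted nor normalised, and a detection p-value per probe and array, per the file headers and values. A further deposited column holds the ratio of a probe's intensity to the mean of its array. The authors' scanning software is not given in the sources used here. Bead numbers served only to drop 1 probe without beads.

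With limma 3.58.1 in R 4.3.3, normexp parameters were taken from the 19051 of 20588 probes (92.5%) whose detection p is a whole multiple of 1/708 on all arrays, since an estimate from all probes was known to be inflated: its mean was 96.5 to 126 per array, against 31.1 to 38.4. An offset of 16, quantile normalisation and log2 followed. The 6698 probes detected (p below 0.01) on 4 or more arrays were fitted with lmFit and eBayes, with group alone, under Benjamini-Hochberg adjustment over all of them. The scripts were tested on simulated data. Bounds set every array of the group without detection at the lowest signal of detected probes whose detection p is a regular multiple. Arrays of the other group kept their own values, detected or not.

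Members, lists and the naming rule were chosen with earlier results of these data known. The rule names every tested CCT, HSP90, HSPD and HSPE probe, key HSP70, HSPB and J proteins whatever their values, up to 3 probes per direction with the smallest p in each larger family, and the first 3 cochaperones per direction. ER and mitochondrial sets and promoter groups were added to it. Titles give replicate numbers. Same-numbered arrays 1, 2 and 3 had correlations of 0.039, 0.031 and 0.02 between their deviations from the group means. For arrays 4 it was -0.014, and other pairs had -0.034 to 0.018. All were small, and the main fit took no pairs. As arrays 1, 2 and 3 lay above every other pair, these values do not settle whether the numbers are pairs. A replicate block is among the alternatives. Old symbols were updated through RefSeq (GRCh38.p14). No probe or protein sequence was used here.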

Additional observations from a re-analysis of the deposited data

Results flagged for a closer look

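Among 72 groups of 4 values, 4 held an array far from the other 3 by Dixon's criterion at 95%, which chance gives in about 1 group in 20. HSPA8 probe ILMN_14829 read 12.36 on inner array 2, with the other inner arrays at 12.51 to 12.52. CCT5 read 9.90 on inner array 1, with the others at 10.81 to 10.94. DNAJB6 probe ILMN_26714 read 11.97 on inner array 3, with the others at 12.09 to 12.11. Inner array 3 had 7000 probes detected, and the other inner arrays 6570 to 6615. The part of that count in the values of inner array 3 was not tested.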

How the results depend on the processing

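No member was called under any of 19 alternatives. HSPB1 stayed lower in outer cells in all of them, by -0.56 to -0.44, with an adjusted p of 0.232 to 0.754. Its unadjusted p was lowest without a detection filter, at 0.00134, and was 0.0919 with a replicate block. Over all probes 4 were called, against 1 with neqc on all probes, 2 with the saddle fit and offset of 50, 2 without a detection filter, 0 where detection on all 8 arrays was required, 0 with a replicate block, and 1 to 7 leaving out an array in turn (1 without inner array 2, 2 without outer array 1, 7 without outer array 4). Members at an unadjusted p below 0.05 numbered 1, and 2 with neqc on all probes, 2 without background correction, 2 with the authors' scaled values, 2 with detection on all 8 arrays, 4 without a filter, 3 with a trended robust eBayes, 3 with the replicate block (CCT5, DNAJC19 and HSPC049), 0 with median scaling, and 1 to 3 leaving out an array (3 without outer array 3, none of them HSPB1). Members without overlap numbered 3, and 1 with median scaling (HSPC111), 4 with the authors' scaled values and 4 to 8 leaving out an array (8 without outer array 3). Groups separate more easily when an array is left out, so those counts cannot be set against the 5.26% of the main fit. Shares of all tested probes under the alternatives are not given here for either count of members, so neither can be read against the background. The HSP60 and HSP10 median was -0.36 with detection by intensity, which adds HSPD1, and the small heat shock protein median was -0.00 without a filter, which adds 6 dim probes. Of 695 values of the 37 named probes under alternatives, 34 had the opposite sign, none of them past a threshold, and 25 probes never did. Opposite signs came with neqc on all probes for DNAJA3 (-0.00) and HSPA4L (0.24), with median scaling for HSPA9B (0.01), and with cyclic loess and the authors' scaled values for DNAJB1 (-0.00 and -0.00) and HSPA1A (-0.00 and -0.01). Leaving out an array gave -0.39 to 0.43 for DNAJA3, -0.09 to 0.04 for HSPA9B, -0.56 to 0.49 for CCT4, -0.07 to 1.64 for HSPA5, -0.07 to 0.10 for DNAJB1, -1.55 to 0.21 for CCT6A probe ILMN_21650, -1.46 to 0.50 for HSPA4L, -0.02 to 0.31 for HSPA4, -0.10 to 0.06 for HSPE1, -0.19 to 0.38 for DNAJC8, -0.20 to 0.15 for HSPA1A and -0.06 to 0.20 for DNAJB6 probe ILMN_7651. Apart from the added probes, the cause of these changes was not tested. Members below the detection filter have no value here, which says nothing of their mRNA.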
